A study of Mus musculus with 57 samples.

Results

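Lithium was compared with vehicle in the prefrontal cortex of wild-type (WT) mice. The libraries were chosen by their labels alone, as all WT lithium and all WT vehicle libraries, and the 2 sexes were given equal weight. They numbered 19 of the 56 libraries analysed, 9 under lithium (4 females and 5 males) and 10 under vehicle (5 females and 5 males). The labels name 1 further WT lithium female, which was not analysed here. All mice were C57BL/6J and came from the Shank3 delta C line, in which the WT animals carry no mutant allele and the heterozygous (HT) animals carry 1. Drug or vehicle reached the pups through their mothers' milk for 3 weeks, from postnatal day 3 to 24, so the pups' own dose is not recorded in the labels, and tissue was taken on postnatal day 25. Beside the main comparison, HT lithium mice (5 females and 4 males) were set against HT vehicle mice (5 females and 3 males), and WT lithium mice against WT fluoxetine mice (5 females and 5 males). Fluoxetine is a serotonin reuptake inhibitor given over the same days by the same route. The labels name neither dams nor litters, so pups of 1 dam cannot be recognised, and the p-values measure only the spread between these samples.

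Lithium is a mood stabiliser. It inhibits glycogen synthase kinase 3 (GSK3), which marks beta-catenin for degradation, and inositol monophosphatase, which returns inositol phosphates to free inositol. It also enters cells in place of sodium, interferes with water handling in the kidney, and lengthens the circadian period in rodents.

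Libraries were made from total RNA with a stranded mRNA kit (TruSeq), and values are given as the authors' normalised counts per gene. The reads recovered from them numbered 23386799 to 35246799 in the 19 libraries. The libraries carried the transcripts of cerebral cortex. The vesicular glutamate transporter Slc17a7 lay between 40273 and 53975 normalised counts in lithium libraries and between 41078 and 55343 in vehicle libraries, and the cortical projection neuron factor Tbr1 lay between 2705 and 4757 in lithium and between 2785 and 3934 in vehicle libraries. Shank3, of which the HT mice carry a mutant allele, spanned 6565 to 8588 (median 7926) in lithium libraries, against 6022 to 8496 (median 7616) in vehicle libraries, and was not called (0.06 ± 0.09 on the log2 scale, limma adjusted p = 0.751). Transthyretin (Ttr), the defining transcript of choroid plexus, did not exceed 24.9 in lithium or 11.6 in vehicle libraries. Olfactory bulb transcripts varied within every group. Eomes ran from 1.88 to 817 in lithium and from 1.83 to 637 in vehicle libraries, and the summed level of the 12 olfactory bulb markers from 15591 to 25531 in lithium and from 16456 to 24891 in vehicle libraries. Striatal transcripts varied too, with Drd2 from 12.4 to 594 in lithium and from 9.88 to 293 in vehicle libraries. The summed level of 17 striatal markers ran from 15920 to 28231 in lithium and from 14310 to 19310.5 in vehicle libraries, and 0 of the 17 were called. The slope of log2 values with GC content, per 10 percentage points, was -0.01 ± 0.06 (SD, n = 4) in lithium females, against -0.06 ± 0.08 (SD, n = 5) in vehicle females. In males it was -0.02 ± 0.08 (SD, n = 5) under lithium, against 0.06 ± 0.06 (SD, n = 5) under vehicle. In bulk tissue, fewer cells of a type and less RNA per cell cannot be told apart.

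Many transcripts differed by small amounts between lithium and vehicle mice. Of 18026 genes tested with limma, 2109 (11.7%) passed an adjusted p below 0.05, of which 1271 (7.05%) were higher and 838 (4.65%) lower in lithium mice. The median size of the change among them was 0.23 on the log2 scale. Among the 1271 higher genes 142 changed by more than 0.5 and 29 by more than 1, and among the 838 lower genes 77 and 7. In 111 genes (0.616%) the 9 lithium and 10 vehicle libraries did not overlap at all, with lithium above in 90 genes (0.499%) and below in 21 (0.116%). The higher and lower genes differed in build: the median longest transcript measured 5285 bases among higher genes and 2234 bases among lower genes, against 3166 bases among all tested genes, and the median GC content was 50.6%, 48.8% and 49.3%. After a correction of each library's trend with GC content and length, 1512 genes were called, 794 higher and 718 lower, of which 1219 were among the 2109. The part of length and GC content in the calls was not tested beyond this correction.

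**Figure D1:**
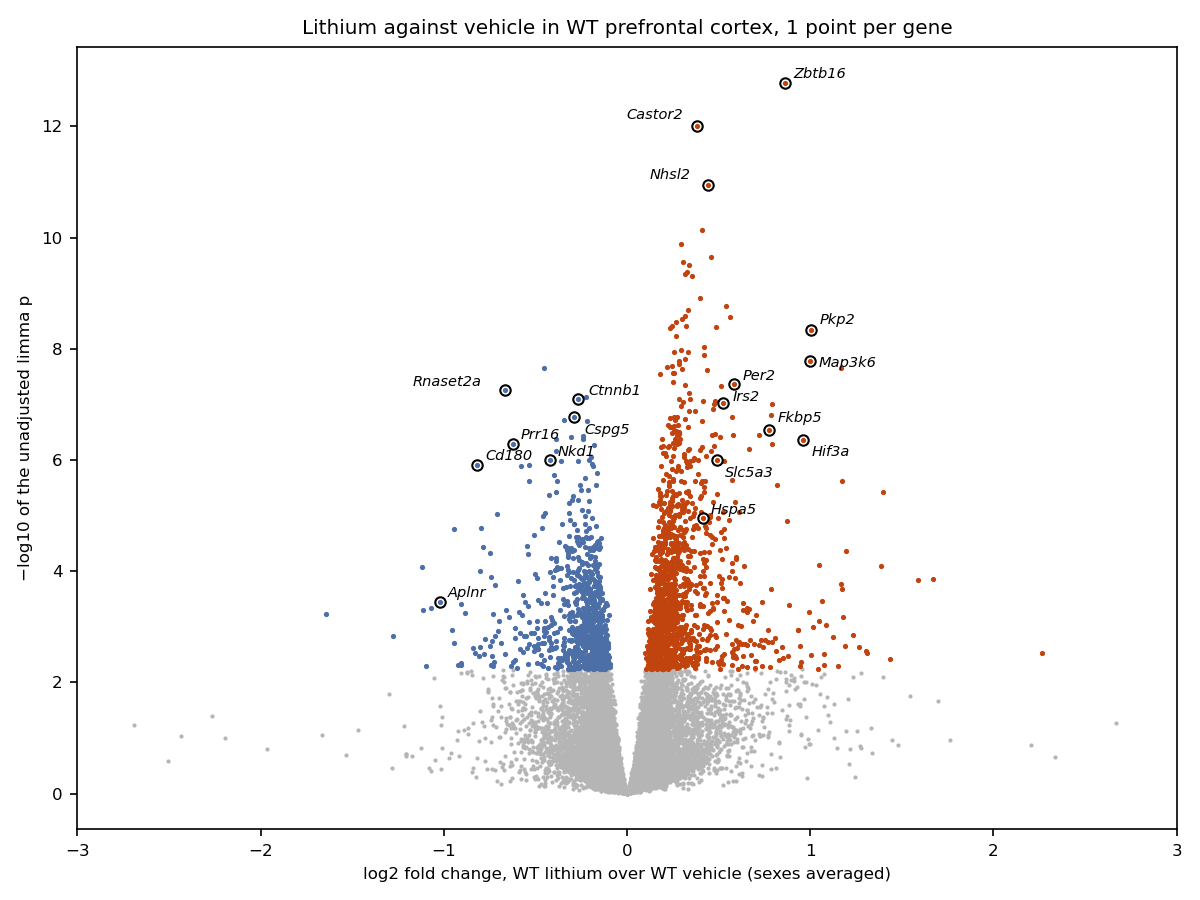
Each point is 1 of 18026 genes, with the log2 fold change of WT lithium over WT vehicle on the horizontal axis and −log10 of the unadjusted limma p on the vertical axis. Orange points (1271 higher) and blue points (838 lower) passed an adjusted p below 0.05, grey points did not, and circled genes are named in the text. Zbtb16 stands highest, at a log2 change of 0.86, and 1 gene lies outside the plotted range.

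The 3 genes with the smallest p all rose. Zbtb16, a zinc finger transcriptional repressor that glucocorticoids induce, lies on chromosome 9 (48654297 to 48836222, GRCm38). It had 1018, 1476, 1385 and 1426 normalised counts in lithium females, against 969, 915, 754, 704 and 685 in vehicle females. In males it had 1592, 1389, 1483, 1694 and 1691 under lithium, against 1079, 857, 794, 595 and 650.1 under vehicle. The groups did not overlap within either sex, and Zbtb16 rose by 0.86 ± 0.09 on the log2 scale (± SE here and below, limma adjusted p = 2.93e-09).

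Castor2, a relative of the arginine sensor of the mTORC1 nutrient pathway, lies on chromosome 5 (134099711 to 134144343). It had 5245, 6232, 5795 and 6081 in lithium females, against 4435, 4434, 4215, 4478 and 4232 in vehicle females. Lithium males had 5414, 5922, 5732, 5686 and 5808, against 4484, 4445, 4462, 4314 and 4799 in vehicle males. All 9 lithium libraries lay above all 10 vehicle libraries, and Castor2 rose by 0.38 ± 0.04 (adjusted p = 8.70e-09). Nhsl2, a relative of the actin-regulating Nance-Horan syndrome protein, lies on chromosome X (101849385 to 102092055) and had 1844, 2581, 2244 and 2347 in lithium females, against 1646, 1781, 1622, 1882 and 1629.7 in vehicle females. The values in males were 2059.7, 2297, 2208, 2482 and 2568 under lithium, against 1643, 1748, 1779, 1451 and 1628 under vehicle. Of the 9 lithium libraries 8 exceeded every vehicle library, and Nhsl2 rose by 0.44 ± 0.05 (adjusted p = 6.84e-08).

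The other 7 of the 10 genes with the smallest p rose as well, by 0.29 to 0.46 with adjusted p from 3.27e-07 to 8.00e-07. They were Sgsm1, a modulator of small GTPases, Mlxip, a glucose-sensing transcription factor, Wipf3, a partner of the actin regulator WASP, the homeobox gene Zhx3, the cilium gene Dzip1l, Ccdc6 and the helicase gene Helz. Sgsm1 spanned 3654 to 3977 (median 3818) in lithium libraries, against 2451 to 3516 (median 2737) in vehicle libraries (lowest to highest, with the median). Mlxip spanned 1228 to 1351 (median 1259) in lithium libraries, against 922 to 1124 (median 1038) in vehicle libraries. In Sgsm1, Mlxip, Zhx3, Ccdc6 and Helz the 2 groups did not overlap, whereas in Wipf3 and Dzip1l 8 of the 9 lithium libraries lay above every vehicle library.

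**Figure D2:**
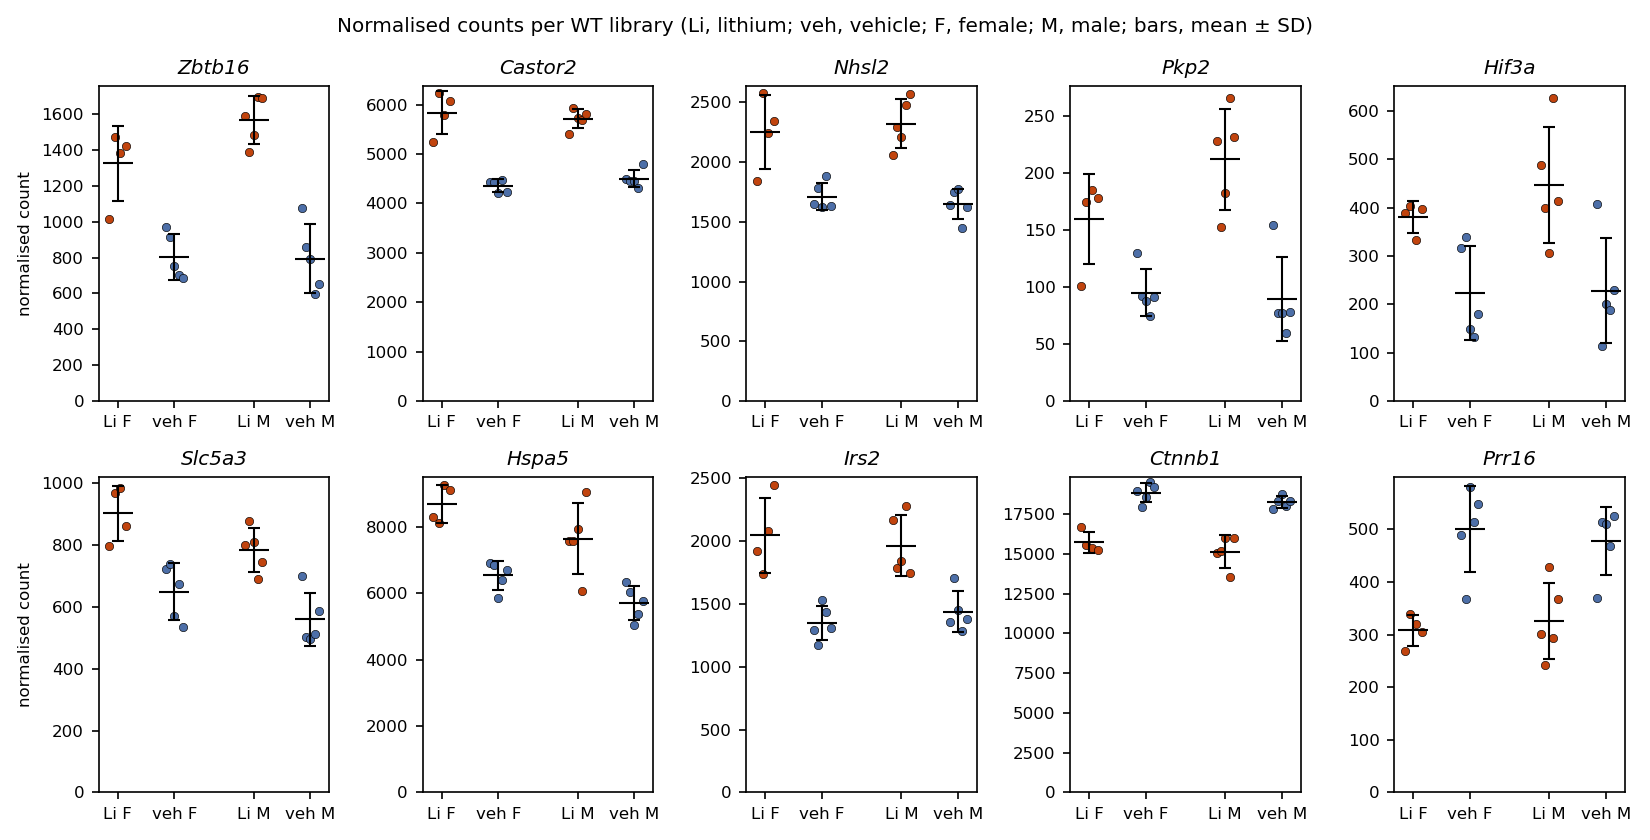
Normalised counts of 10 genes in each WT library, with lithium (orange) left of vehicle (blue) for females and then males, on axes that start at 0. Black lines are the mean and SD of 4 or 5 libraries. The groups separate completely in Castor2, Irs2 and Ctnnb1, while single vehicle libraries reach into the lithium range in Pkp2 and Hif3a.

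Of the 12 largest rises among genes with a mean of at least 50 normalised counts, the first in size was variable. Rsc1a1 averaged 106 ± 80 in lithium females (SD, n = 4), against 20.7 ± 21.6 in vehicle females (SD, n = 5), and rose by 2.27 ± 0.72 on the log2 scale with the sexes averaged (limma adjusted p = 0.032). Etnppl, an astrocyte-enriched phospholyase, rose by 0.85 ± 0.28 (adjusted p = 0.0372). The Rsc1a1 call ended with the compared groups only, in edgeR and DESeq2 and without any 1 of 6 libraries, and that of Etnppl with the replicate block and without any 1 of 8. Xist, the RNA of X inactivation, passed through the males, whose means of 4.78 under lithium and 1.28 under vehicle are near 0, and its call ended with a pseudocount of 5, in edgeR and after the correction for GC content and length. Pkp2, which encodes the desmosomal protein plakophilin 2, had 101, 175, 186 and 178 in lithium females, against 129.5, 92.4, 88, 74.8 and 91 in vehicle females. In males it had 228, 153, 182, 266 and 232 under lithium, against 155, 77.2, 77.3, 60 and 78.4 under vehicle. The groups overlapped through 1 library each in both sexes, and Pkp2 rose by 1.01 ± 0.14 (adjusted p = 3.60e-06). Map3k6, a stress-activated kinase, spanned 90.1 to 193 (median 149) in lithium libraries, against 41.5 to 116 (median 69.2) in vehicle libraries. It rose by 1.0 ± 0.15 (adjusted p = 9.36e-06), with 7 of 9 lithium libraries above all vehicle libraries. Paqr5, a membrane progestin receptor, and Plekhg4, a guanine nucleotide exchange factor, rose by 0.79 ± 0.14 and 0.79 ± 0.13. Serinc2, a serine incorporator family member, rose by 0.88 ± 0.18 (adjusted p = 8.02e-04), with 3 of 9 lithium libraries above all vehicle libraries.

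Of 22 glucocorticoid-responsive genes tested 8 were called higher and 0 lower (36.4%, against 11.7% of all tested genes), with a list median of 0.17 against -0.0029 for all genes. In males 7 were higher and 0 lower (31.8%, against 2.3% of all tested genes, median 0.27). In females 2 were higher and 0 lower (9.09%, against 6.62%, median 0.09). For a difference between the sexes limma called 0 of the list. The list's largest values were those of 2 low genes, the lipocalin gene Lcn2 (1.67 ± 0.40) and the lipid droplet gene Plin4 (1.17 ± 0.29). DESeq2 gave no adjusted p for Lcn2, which was counted as not called. Hif3a, a hypoxia-inducible factor family member, had 389, 404, 333 and 397 in lithium females, against 316, 339.6, 148, 132 and 179 in vehicle females. Lithium males had 487, 400.1, 306, 626 and 413, against 407, 114, 199.7, 188 and 229 in vehicle males. Hif3a separated within females except for the lowest lithium and 1 vehicle library, and in males only replicate 1 of the vehicle group reached the lithium values. Hif3a rose by 0.96 ± 0.17 (adjusted p = 7.75e-05).

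Fkbp5, a co-chaperone that dampens the glucocorticoid receptor, had 1021, 1107, 1208 and 1190.3 in lithium females, against 934, 1140.0, 547, 736 and 972 in vehicle females. The values in males were 1784, 1550.1, 1454, 1988 and 1566 under lithium, against 1298, 613, 637, 701 and 705 under vehicle. The groups overlapped in females and not in males, and with the sexes averaged Fkbp5 rose by 0.78 ± 0.13 (adjusted p = 6.56e-05). Tsc22d3, the leucine zipper GILZ, spanned 1850.0 to 3020.2 (median 2132) in lithium libraries, against 1320.3 to 2081 (median 1577) in vehicle libraries, and rose by 0.47 ± 0.08. Sult1a1, a sulfotransferase that conjugates phenols, spanned 283 to 626 (median 311) in lithium libraries, against 109.7 to 327 (median 186) in vehicle libraries, and rose by 0.82 ± 0.15 (adjusted p = 2.91e-04). Replicate 1 of the vehicle males had the highest vehicle value of Zbtb16, Pkp2, Hif3a and Fkbp5.

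The largest falls were in genes of low level. Aplnr, the apelin receptor of growing vessels, had 109, 66.1, 101 and 68.5 in lithium females, against 82.3, 112, 128, 149.6 and 73.8 in vehicle females. In males it had 53, 58.5, 66.7, 9.54 and 53.8 under lithium, against 126, 126, 114, 162 and 158 under vehicle. The groups overlapped in females and not in males, and Aplnr fell by 1.02 ± 0.27 on the log2 scale (adjusted p = 0.00774). Cd180, a Toll-like receptor relative of myeloid cells, had 52, 43.7, 53.3 and 45 in lithium females, against 74.6, 56.6, 82.5, 86 and 52.6 in vehicle females. Lithium males had 30.5, 35.6, 46.5, 20.3 and 53.8, against 48.5, 81.7, 92.4, 94.9 and 87.5 in vehicle males. Cd180 fell by 0.82 ± 0.15 (adjusted p = 1.53e-04), with an overlap in males and 1 lithium female above the lowest vehicle female. Prr16, which in human cells is known to promote cell growth, spanned 243 to 428 (median 305) in lithium libraries, against 368 to 580.2 (median 512) in vehicle libraries. It fell by 0.62 ± 0.11 (adjusted p = 8.72e-05), with 8 of 9 lithium libraries below all vehicle libraries.

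Rnaset2a, a lysosomal ribonuclease gene, spanned 112 to 188 (median 144) in lithium libraries, against 192 to 289.7 (median 242) in vehicle libraries, without overlap, and fell by 0.67 ± 0.10. It has a near-identical copy, so its counts are uncertain. Ppp1r14a, a smooth muscle inhibitor of myosin phosphatase, Tnnc1, a troponin C, and the immediate early gene Ier2 fell by 0.81 ± 0.26, 0.62 ± 0.21 and 0.61 ± 0.18 (adjusted p = 0.0348, 0.0407 and 0.0216). The Ppp1r14a call ended without any 1 of 6 libraries, that of Tnnc1 after the GC and length correction and without any 1 of 12, and that of Ier2 with the compared groups only and without replicate 2 of the lithium females or 3 of the vehicle females. Gkn3, a marker of brain arteries, and the deubiquitinase gene Usp43 fell by 0.70 ± 0.20 (adjusted p = 0.0179) and 0.60 ± 0.15 (adjusted p = 0.00424). The SCAN domain gene Scand1, the zinc finger gene Zfp771 and the glutamine transporter Slc38a5 had -0.72 ± 0.21, -0.61 ± 0.18 and -0.59 ± 0.17, and each lost its call without replicate 4 of the lithium males, Slc38a5 also without replicate 2 of the lithium females.

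The transcripts of lithium's own targets were not called with the sexes averaged. Gsk3a spanned 5450.2 to 6762 (median 5703) in lithium libraries, against 5626 to 7159 (median 6247) in vehicle libraries. Gsk3b spanned 5927 to 7591 (median 6377) in lithium libraries, against 5474 to 6955 (median 6107) in vehicle libraries. The inositol monophosphatase gene Impa1 spanned 1657 to 2181 (median 1946) in lithium libraries, against 1547 to 1998 (median 1826) in vehicle libraries. The log2 changes of Gsk3a, Gsk3b and Impa1 were -0.09 ± 0.06, 0.11 ± 0.05 and 0.10 ± 0.05 (adjusted p = 0.399, 0.187 and 0.144), with overlapping groups in all 3. In males alone Impa1 was called, at 0.24 ± 0.06 (adjusted p = 0.0223), while females had -0.04 ± 0.07 (adjusted p = 0.807), and the difference of 0.28 ± 0.09 was not called (adjusted p = 0.298). The averaged Impa1 change was called with array weights and without replicate 1 of the lithium females. Of 23 genes of GSK3, beta-catenin and Wnt feedback, 1 was called higher and 2 lower, with a median of -0.09. This share of 13% lay near the 11.7% of all tested genes. Fzd1, whose values are not reported here, was the gene called higher, and Ctnnb1 and Nkd1 were those called lower. Ctnnb1, which encodes beta-catenin itself, had 16662, 15572, 15355 and 15252 in lithium females, against 18964, 17956, 18550.1, 19497 and 19214 in vehicle females. The values in males were 15028, 15149.8, 16022, 13518 and 15989 under lithium, against 17804, 18346, 18746, 17987 and 18335 under vehicle. All 9 lithium libraries lay below all 10 vehicle libraries, and Ctnnb1 fell by 0.27 ± 0.04 (adjusted p = 2.77e-05).

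Nkd1, a feedback inhibitor of Wnt signalling, had 615, 467, 524 and 573 in lithium females, against 510.3, 582, 634, 699 and 634 in vehicle females. In males it had 509, 522, 439, 389 and 453 under lithium, against 627, 742, 734, 808 and 778 under vehicle. Nkd1 did not overlap in males and overlapped in females, and fell by 0.42 ± 0.08 (adjusted p = 1.36e-04). Frat2, which encodes a GSK3-binding protein and was chosen after its values were seen, spanned 100.2 to 188 (median 146) in lithium libraries, against 151 to 211 (median 183) in vehicle libraries, and fell by 0.45 ± 0.09 (adjusted p = 6.34e-04).

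The share of inositol genes called lay near that of all tested genes, and that of tonicity and osmolyte genes above it. Of 20 inositol genes 3 were called higher and 0 lower (15%, against 11.7% of all tested genes, median 0.05, or -0.01 after the GC and length correction), and of 18 tonicity and osmolyte genes 6 were higher and 1 lower (38.9%, median 0.11). Slc5a3, the sodium-coupled myo-inositol transporter that tonicity induces, had 797, 967, 985 and 861 in lithium females, against 722, 739, 571, 675 and 534 in vehicle females. Lithium males had 798, 876, 808, 690.4 and 745, against 699.6, 502, 495, 511 and 586 in vehicle males. The groups did not overlap in females and overlapped in males through the highest vehicle library, and Slc5a3 rose by 0.49 ± 0.09 (adjusted p = 1.36e-04).

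The volume-regulated anion channel subunits Lrrc8a, which the channel requires, and Lrrc8c rose by 0.31 ± 0.06 and 0.36 ± 0.07, and the osmotically regulated amino acid transporter Slc38a2 by 0.30 ± 0.07. Isyna1, which makes inositol from glucose 6-phosphate, rose by 0.27 ± 0.08 (adjusted p = 0.0229), and its call ended without replicate 5 of the vehicle females. Pi4ka, a phosphatidylinositol 4-kinase, rose by 0.23 ± 0.06, a call that ended after the GC and length correction. Of 20 sodium pump and cation transport genes 4 were called higher and 0 lower (20%, median 0.06). After that correction 2 and 0 were called, or 10%, against 8.39% of all tested genes.

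Chaperones of the endoplasmic reticulum (ER), which fold secreted proteins and rise when unfolded protein accumulates, formed the list with the highest share called. Of 24 genes 12 were called higher and 0 lower (50%, against 11.7% of all tested genes, median 0.17). After the GC and length correction 11 were higher and 0 lower, with 8.39% of all tested genes called. Hspa5, the ER chaperone BiP, which was named after its values were seen, had 8283, 8111, 9274 and 9099 in lithium females, against 6903, 6849, 5856, 6387 and 6687 in vehicle females. In males it had 7568, 7583, 7936, 6057 and 9039 under lithium, against 6348, 6023, 5040.3, 5365 and 5759.7 under vehicle. Only the lowest lithium male overlapped with vehicle libraries, and Hspa5 rose by 0.41 ± 0.08 (adjusted p = 7.26e-04). Dnajc3, a co-chaperone of BiP, spanned 1723 to 2291 (median 1991) in lithium libraries, against 1257 to 1865 (median 1595) in vehicle libraries. Pdia4, a protein disulfide isomerase, spanned 891 to 1289.8 (median 1220.5) in lithium libraries, against 764 to 996 (median 891) in vehicle libraries. The ubiquitin ligase gene Syvn1 and Herpud1, 2 parts of the machinery that removes misfolded ER proteins, rose by 0.25 ± 0.05 and 0.27 ± 0.05, and in Herpud1 the groups did not overlap.

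The promoters of these genes are shown because several hold the ER stress element, the sequence through which ATF6 and NF-Y are known to act. The element was searched as CCAAT, then 9 bases of any kind, then CCACG, on both strands of RefSeq promoter windows (GRCm38.p6, 250 bases before to 50 after a gene's start). It was found in 9 of the 20 list genes with a window, against 37 of 27025 genes (0.137%) and 20 of the 12733 tested genes with a window (0.157%). The 9 were Hspa5, Dnajc3, Syvn1, Calr and Creld2, all called higher, and Canx, Hsp90b1, Pdia6 and Derl3, which were not called. Among called genes with a window it was found in 5 of 935 higher genes (0.535%) and 0 of 661 lower genes. These 5 are the same list genes, so the share is not a separate result. A match is a description of these letters only. The element is in capitals, read on the gene's strand, at chr2:34771840-34772139 (Hspa5, plus strand), chr14:118937682-118937981 (Dnajc3, plus strand), chr19:6046326-6046625 (Syvn1, plus strand) and chr8:84846882-84847181 (Calr, minus strand, with the element in reverse).
Hspa5: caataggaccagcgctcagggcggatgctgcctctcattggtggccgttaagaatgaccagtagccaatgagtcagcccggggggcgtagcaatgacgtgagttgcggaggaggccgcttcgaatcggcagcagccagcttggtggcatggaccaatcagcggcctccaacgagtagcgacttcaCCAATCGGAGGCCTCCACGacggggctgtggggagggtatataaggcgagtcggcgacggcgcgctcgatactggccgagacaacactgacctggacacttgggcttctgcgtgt
Dnajc3: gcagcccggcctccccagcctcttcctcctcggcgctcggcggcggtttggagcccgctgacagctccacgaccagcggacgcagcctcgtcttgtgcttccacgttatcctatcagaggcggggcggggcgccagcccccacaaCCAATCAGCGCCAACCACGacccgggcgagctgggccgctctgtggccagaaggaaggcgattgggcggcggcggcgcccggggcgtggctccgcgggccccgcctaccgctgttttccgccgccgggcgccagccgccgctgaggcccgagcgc
Syvn1: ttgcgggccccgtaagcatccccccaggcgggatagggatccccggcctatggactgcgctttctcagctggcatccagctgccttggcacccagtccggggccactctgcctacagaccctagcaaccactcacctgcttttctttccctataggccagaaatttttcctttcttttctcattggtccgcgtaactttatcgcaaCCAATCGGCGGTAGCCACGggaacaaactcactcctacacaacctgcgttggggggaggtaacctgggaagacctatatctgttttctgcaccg
Calr: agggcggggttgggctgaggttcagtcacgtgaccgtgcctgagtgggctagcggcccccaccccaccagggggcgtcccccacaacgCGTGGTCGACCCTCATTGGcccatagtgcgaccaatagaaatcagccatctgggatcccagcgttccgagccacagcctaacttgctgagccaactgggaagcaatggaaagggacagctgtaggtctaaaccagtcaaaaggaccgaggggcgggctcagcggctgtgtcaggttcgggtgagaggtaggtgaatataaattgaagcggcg

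The element began 65 bases before the start in Hspa5, 105 in Dnajc3, 44 in Syvn1 and 162 in Calr. Calr, a calcium-binding ER lectin chaperone named for its promoter, rose by 0.18 ± 0.05 (adjusted p = 0.0194), and Creld2, a secreted ER stress protein, by 0.30 ± 0.10 (adjusted p = 0.0303). In both genes 1 lithium library lay below all vehicle libraries. The Creld2 call ended in turn without replicate 3 or 4 of the lithium females, 1 or 2 of the lithium males, 2 or 3 of the vehicle females, or 3 of the vehicle males. For comparison, the E-box CACGTG stood in 12.4% of higher and 12.1% of lower genes, against 11% of tested genes and 8.09% of all genes with a window.

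Some growth factor and nutrient signalling genes were called higher. Of 28 genes of the AKT, mTOR and TSC pathway 7 were called higher and 2 lower (32.1%, median 0.08). These counts were 2 and 2 after the GC and length correction, and 5 and 0 without replicate 4 of the lithium males. The share of all tested genes called was 11.7%, or 8.39% after that correction. Irs2, an insulin receptor substrate, had 1919, 1739, 2079 and 2443 in lithium females, against 1295, 1176, 1528, 1437 and 1310.2 in vehicle females. Lithium males had 2166, 1785, 1839, 2279 and 1748, against 1356, 1709, 1455, 1284 and 1381 in vehicle males. All 9 lithium libraries lay above all 10 vehicle libraries, and Irs2 rose by 0.52 ± 0.08 (adjusted p = 3.04e-05). In the same list Tsc2, the GTPase-activating subunit that restrains mTORC1, rose by 0.23 ± 0.04, and lower were Akt1 (-0.14 ± 0.05) and the mTORC1 activator Rheb (-0.15 ± 0.05). The Akt1 call ended without any 1 of 6 libraries, and that of Rheb with the compared groups only and without any 1 of 11. Outside the list, Igf1r, the receptor of insulin-like growth factor 1, spanned 1995 to 2319 (median 2209.7) in lithium libraries, against 1593 to 1920.2 (median 1809.7) in vehicle libraries, without overlap, and rose by 0.29 ± 0.04.

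Sesn3, a stress-induced sestrin that also restrains mTORC1, spanned 5893 to 7402 (median 6383) in lithium libraries, against 4978 to 5688 (median 5509) in vehicle libraries, without overlap, and rose by 0.27 ± 0.04 (adjusted p = 4.45e-06). Among 19 circadian clock genes 4 were called higher and 1 lower (26.3%, median 0.15). These counts were 2 and 0 after the GC and length correction, and 7 and 1 without replicate 2 of the lithium females. The share of all tested genes called was 11.7%, or 8.39% after that correction. Per2, a repressor of the clock, had 1588, 1239.8, 1848 and 2095 in lithium females, against 1191, 888, 1061, 1200.3 and 1028 in vehicle females. The values in males were 1664, 1301, 1353, 2096 and 1511 under lithium, against 1179, 1333, 987, 962 and 990.0 under vehicle. Per2 rose by 0.58 ± 0.09 (adjusted p = 1.77e-05), with an overlap in males through 1 vehicle library. Dbp, a clock output factor, fell by 0.32 ± 0.10 (adjusted p = 0.0224), and the clock activator Arntl rose by 0.25 ± 0.07 (adjusted p = 0.0132). The Dbp call ended after the GC and length correction and without replicate 1 of the lithium females, 1 of the lithium males or 3 of the vehicle females. The labels give no time of day of dissection.

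**Figure D3:**
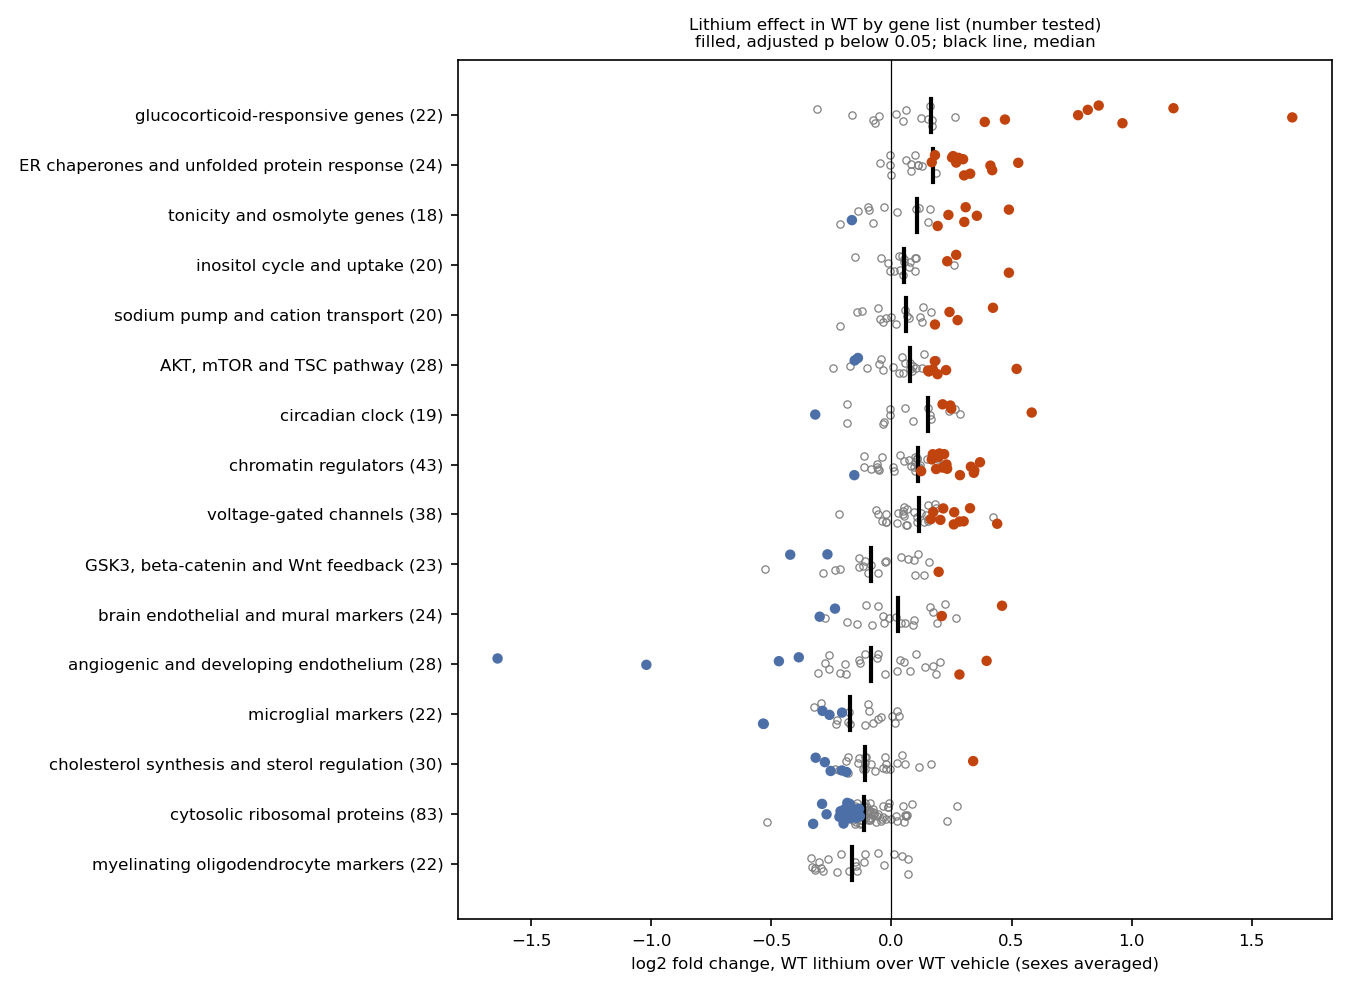
Log2 fold change of WT lithium over WT vehicle for each tested member of 16 gene lists, with the number tested in parentheses. Filled points passed an adjusted p below 0.05 (orange higher, blue lower), open points did not, and black lines are list medians. ER chaperones have the highest share called (12 of 24), and all 20 called ribosomal protein genes lie below 0.

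Called channel, presynaptic and chromatin genes were mostly higher, and fewer were called after the GC and length correction. Of all tested genes 11.7% were called, or 8.39% after that correction, and the presynaptic share lay near the former. Of 38 voltage-gated channel genes 10 were called higher and 0 lower (26.3%, median 0.11), or 5 and 0 after the GC and length correction. Among them the sodium-activated potassium channel gene Kcnt1 rose by 0.28 ± 0.06. Of 33 presynaptic genes 5 were called higher and 0 lower (15.2%, median 0.01, turned to -0.01 by that correction, with 2 and 0 called). The vesicle protein gene Sv2a spanned 13042 to 15129.7 (median 14835) in lithium libraries, against 10824 to 13119 (median 12241) in vehicle libraries, and rose by 0.25 ± 0.04. The synapsin gene Syn3 rose by 0.37 ± 0.07. The presynaptic count was 3 higher and 0 lower without replicate 2 or 4 of the lithium females or replicate 4 of the lithium males.

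Of 43 chromatin regulators 16 were called higher and 1 lower (39.5%, against 11.7% of all tested genes, median 0.11). These counts were 6 and 3 after the GC and length correction, with a median of 0.02. The histone methyltransferase gene Kmt2d spanned 3790.0 to 4897 (median 4535) in lithium libraries, against 2898 to 4083 (median 3569) in vehicle libraries, and rose by 0.34 ± 0.05. The acetyltransferase gene Crebbp spanned 2131 to 2591 (median 2271) in lithium libraries, against 1639.9 to 2060.3 (median 1896) in vehicle libraries, without overlap, and rose by 0.29 ± 0.05. Tet3, which oxidises methylated DNA, rose by 0.37 ± 0.06. The calls of Kmt2d, Crebbp and Tet3 held in all 11 alternatives and without any 1 of the 19 libraries.

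A few vascular genes were called higher and a few lower with the sexes averaged. Of 24 brain endothelial and mural markers 2 were called higher and 2 lower (16.7%, median 0.03), or 2 and 0 without replicate 4 of the vehicle males, and of 28 genes of angiogenic and developing endothelium 2 were higher and 4 lower (21.4%, median -0.09). In males 1 of the endothelial and mural markers was higher and 2 lower (median -0.15), against 4 and 0 in females (median 0.16). Of the angiogenic genes 0 were higher and 4 lower in males (median -0.24), against 3 and 0 in females (median 0.11). Among all tested genes 1.51% were higher and 0.793% lower in males, against 3.85% and 2.77% in females. With the sexes averaged 11.7% of all tested genes were called. No gene of either list was called by limma for a difference between the sexes. The summed level of the 24 markers ran from 23465 to 29015 in lithium and from 20241 to 26629 in vehicle libraries. Slc2a1, the glucose transporter of the blood-brain barrier, had 3557, 3404, 4699 and 4576 in lithium females, against 3417, 3234, 2697, 2723 and 2453 in vehicle females. In males it had 4687, 4127, 3562, 4343 and 3827 under lithium, against 3632, 2638, 2905, 2957 and 3002 under vehicle. Slc2a1 rose by 0.46 ± 0.08 (adjusted p = 1.04e-04), with groups that overlapped in both sexes. The endothelial receptor Notch4 and the basement membrane collagen gene Col4a2 rose by 0.40 ± 0.09 and 0.31 ± 0.06, while the angiopoietin receptor gene Tek fell by 0.39 ± 0.09 (adjusted p = 0.00228) and Kdr, the main receptor of vascular endothelial growth factor, by 0.47 ± 0.12 (adjusted p = 0.0079).

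Glial transcripts gave a mixed picture. Of 22 microglial markers 0 were called higher and 5 lower (22.7%, against 11.7% of all tested genes, median -0.17). The P2Y receptor gene P2ry13 spanned 165 to 290.3 (median 243) in lithium libraries, against 247 to 403 (median 384) in vehicle libraries, and fell by 0.53 ± 0.10 (adjusted p = 1.53e-04). Ly86, which encodes the partner of the protein that Cd180 encodes, spanned 130.0 to 201 (median 173) in lithium libraries, against 193 to 299 (median 243) in vehicle libraries, and fell by 0.53 ± 0.10 (adjusted p = 2.55e-04). The summed microglial level ran from 14957 to 18926 in lithium and from 16442 to 20927 in vehicle libraries, with none of the 22 markers at 0. The count of 5 was 2 without replicate 2 of the lithium females, replicate 4 of the lithium males or replicate 5 of the vehicle males. It was 3 without replicate 4 of the lithium females, replicate 1, 3 or 4 of the vehicle females or replicate 3 of the vehicle males, and 8 with edgeR.

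Among 23 astrocyte markers 3 were called higher and 1 lower (17.4%, against 11.7% of all tested genes). Their median was 0.03, or -0.02 after the GC and length correction. The counts were 1 and 1 without replicate 1 of the lithium males or replicate 3 of the vehicle males. The gap junction gene Gjb6 rose by 0.43 ± 0.08 and the calcium-binding protein gene S100b fell by 0.29 ± 0.06. Cspg5, a proteoglycan of oligodendrocyte progenitors and other glia, spanned 7253 to 8635 (median 7856) in lithium libraries, against 8954 to 10679.8 (median 9769) in vehicle libraries, without overlap. It fell by 0.29 ± 0.05 (adjusted p = 4.62e-05). Of 22 myelinating oligodendrocyte markers limma called 0 higher and 0 lower, with 1 at an unadjusted p below 0.05, and edgeR and DESeq2 called 0. Their median log2 change was -0.16 with the sexes averaged, -0.38 in males and -0.01 in females, with 0 called in either sex. Their summed level ran from 115126 to 202750 in lithium and from 106310 to 293892 in vehicle libraries. Of 30 cholesterol genes 1 was called higher and 5 lower (20%, median -0.11), or 1 and 2 without replicate 3 of the lithium females. Insig1, which holds back sterol synthesis when sterols are plentiful and is itself induced when they are scarce, fell by 0.32 ± 0.06, while the sterol exporter gene Abcg1 rose by 0.34 ± 0.05.

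Called genes of the cytosolic ribosome, the proteasome and eIF3 were lower. Of 83 cytosolic ribosomal protein genes 0 were called higher and 20 lower (24.1%, against 4.65% of all tested genes called lower, median -0.11). The number lower was 6 after the GC and length correction, 10 without replicate 2 of the lithium females, 12 without replicate 4 of the lithium males and 13 without replicate 4 of the vehicle males. In females alone 0 were higher and 17 lower (20.5%, against 2.77% of all tested genes called lower, median -0.18). In males alone 0 were higher and 0 lower (against 0.793% of all tested genes called lower, median -0.05). For a difference between the sexes limma called 0 of these 83 genes. Rpl23 spanned 2701 to 3661 (median 3124) in lithium libraries, against 3118 to 4140.4 (median 3889.7) in vehicle libraries, and fell by 0.27 ± 0.06 (adjusted p = 0.00143). Rpl13 and Rps2 fell by 0.33 ± 0.08 and 0.29 ± 0.07. In a set of families looked at after values were seen, 0 of 46 proteasome subunits were higher and 12 lower (26.1%, median -0.09), 0 of 78 mitochondrial ribosomal proteins were higher and 14 lower (17.9%, median -0.10), and 0 of 12 subunits of the initiation factor eIF3 were higher and 4 lower (33.3%, median -0.10). After the GC and length correction 4 proteasome subunits (8.7%), 7 mitochondrial ribosomal proteins (8.97%) and 3 eIF3 subunits (25%) were lower, against 3.99% of all tested genes, and the count of the mitochondrial ribosomal proteins was 8 without replicate 1 of the lithium females.

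Psma6, an alpha subunit of the proteasome core, spanned 1536 to 1838 (median 1605) in lithium libraries, against 1596 to 2047 (median 1836) in vehicle libraries, and fell by 0.18 ± 0.03 (adjusted p = 1.57e-04). Cops3 and Cops5 encode subunits of the COP9 signalosome, which removes the NEDD8 tag from ubiquitin ligases. Cops3 spanned 1299 to 1417 (median 1381) in lithium libraries, against 1455 to 1772 (median 1554) in vehicle libraries, and Cops5 spanned 1453 to 1628 (median 1559) in lithium libraries, against 1687 to 1974 (median 1769) in vehicle libraries. Neither overlapped between the groups, and the falls were 0.22 ± 0.04 (adjusted p = 4.94e-05) and 0.21 ± 0.04 (adjusted p = 1.36e-04). They were the only called members among 10 COP9 genes in the limma fit (20%, against 4.65% of all tested genes called lower). Among other families looked at after values were seen, 0 of 25 Sm and LSm proteins were higher and 5 lower (20%, median -0.125). Of 11 laminin chains 3 were higher and 0 lower (median 0.16), against 7.05% of all tested genes called higher. Counts of these 2 families after the GC and length correction are not reported here.

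The limma fit called more genes in females than in males and no gene for a difference between them. In females 1194 genes were called (6.62%, 694 or 3.85% higher and 500 or 2.77% lower), and in males 415 (2.3%, 272 or 1.51% higher and 143 or 0.793% lower). After the GC and length correction the counts were 400 in females (148 higher and 252 lower) and 379 in males (247 higher and 132 lower). The female count was 795 without replicate 2 of the lithium females and 485 without replicate 4. The male count was 143 without replicate 4 of the lithium males, and 177, 184 or 230 without replicate 3, 4 or 5 of the vehicle males. For the difference of the effects (males minus females) limma called 0 genes, with 1556 at an unadjusted p below 0.05, edgeR called 0 and DESeq2 called 37. The limma count was 1 after the GC and length correction, 1 without replicate 2 of the lithium females or of the lithium males, and 4 without replicate 4 of the vehicle females. Of the 1271 higher genes 1266 had the same sign in both sexes, and of the 838 lower genes 820, which the averaging in part ensures.

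The estimates of several genes lay apart between the sexes, without passing the test of the difference. Aplnr had a log2 change of -1.72 ± 0.36 in males and -0.32 ± 0.39 in females, a difference of -1.40 ± 0.53 (adjusted p = 0.409). Tek had -0.63 ± 0.12 in males and -0.14 ± 0.13 in females (difference adjusted p = 0.372). The tight junction gene Cldn5 had 913, 976, 1043, 539 and 739 normalised counts in lithium males, against 1273, 1225, 1196, 1453 and 1318 in vehicle males. In females it had 1232, 905, 1144 and 849 under lithium, against 959, 1076, 1046, 887 and 952 under vehicle. Its log2 change was -0.65 ± 0.13 in males without overlap and 0.06 ± 0.14 in females with overlap, a difference of -0.71 ± 0.19 (adjusted p = 0.173). Its averaged change of -0.30 ± 0.09 (adjusted p = 0.0308) ended with the compared groups only, after the GC and length correction and without any 1 of 7 libraries.

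Malat1, an abundant nuclear long noncoding RNA, had 43928, 39313, 32173, 44130.0 and 35298 in lithium males, against 28189, 19403, 19394, 23085 and 22722 in vehicle males. In females it had 25499, 27188, 35928 and 28978 under lithium, against 30639.6, 27975, 22638, 29299.8 and 23324 under vehicle. The groups did not overlap in males and overlapped in females, with log2 changes of 0.79 ± 0.14 in males and 0.13 ± 0.15 in females (difference adjusted p = 0.278). Fkbp5 had 1.13 ± 0.18 in males and 0.43 ± 0.19 in females (difference adjusted p = 0.397). Hspa5 had 0.41 ± 0.12 in males and 0.41 ± 0.12 in females, and Castor2 had 0.34 ± 0.06 in males and 0.42 ± 0.06 in females.

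**Figure D4:**
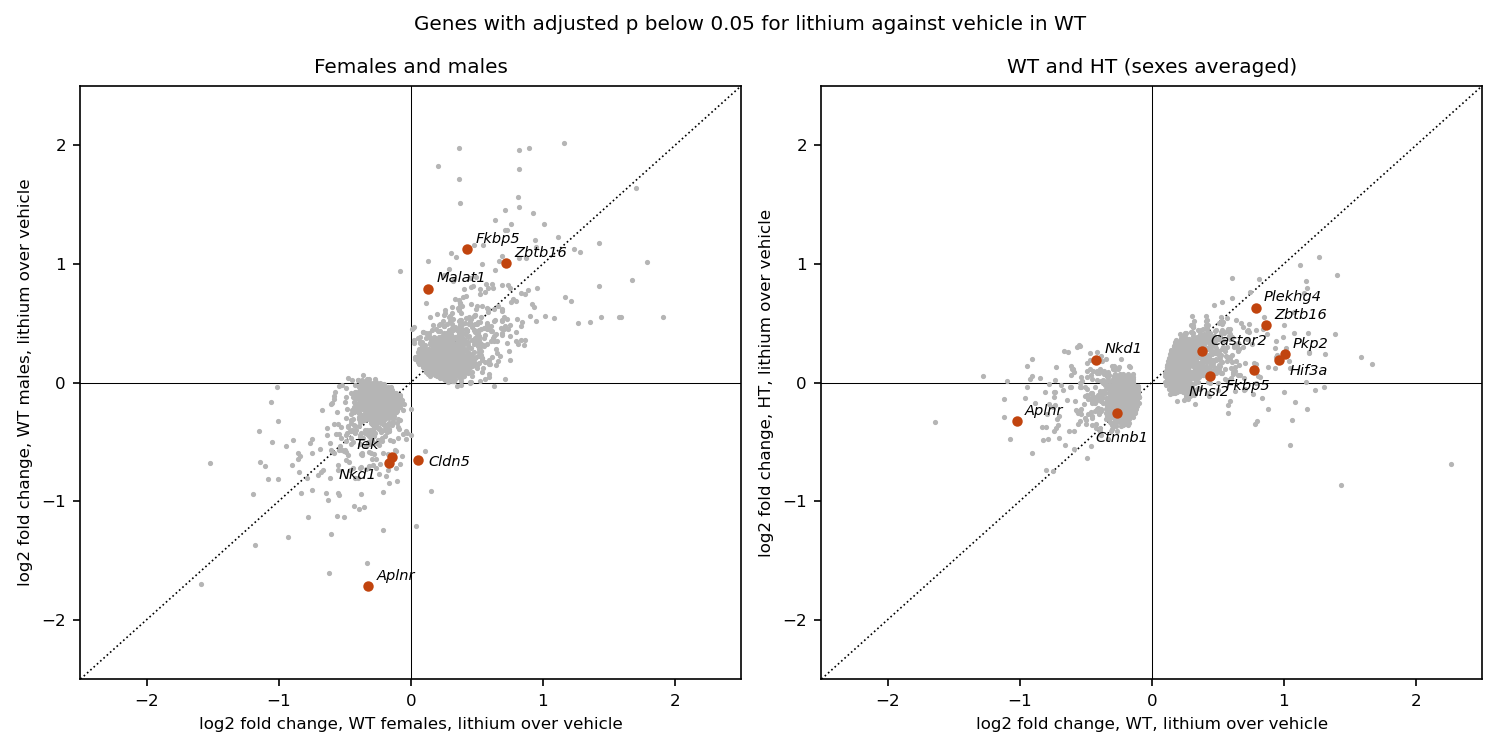
Log2 fold changes of lithium over vehicle for the 2109 genes called in WT with the sexes averaged. The left panel sets WT males against WT females and the right panel sets HT against WT, with the dotted line marking equal changes. In HT 1154 of the 1271 higher genes and 726 of the 838 lower genes have the same sign as in WT.

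HT mice, whose lithium and vehicle libraries are separate from the WT ones, gave 1761 called genes (9.77%, 913 or 5.06% higher and 848 or 4.7% lower). Of the genes called higher in WT 442 were also called higher in HT, which is 34.8% of the WT list and 48.4% of the HT list. Of those called lower in WT 247 were also called lower in HT, 29.5% of the WT list and 29.1% of the HT list. None was called in opposite directions. Both comparisons come from the same limma fit and share its estimate of the spread. The median log2 change of the WT higher genes was 0.24 in WT and 0.16 in HT, and of the WT lower genes -0.22 in WT and -0.13 in HT. These genes were chosen in WT, which favours the larger value there. After the GC and length correction HT had 418 calls, and without replicate 3 of the HT vehicle males 995. Under the correction the genes shared with WT were 113 higher and 107 lower, which is 14.2% and 14.9% of the WT lists and 54.6% and 50.7% of the HT lists. Of the WT lists 93.1% and 90.9% had the same sign in HT. The share of all tested genes with the same sign in WT and HT is not reported here.

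Zbtb16, Castor2 and Ctnnb1 changed in HT in the same direction. Zbtb16 spanned 1178 to 1631 (median 1326) in HT lithium libraries, against 697 to 1226 (median 858) in HT vehicle libraries, and rose by 0.48 ± 0.09 (adjusted p = 4.88e-04). Castor2 spanned 5175 to 5961 (median 5523) in HT lithium libraries, against 4026 to 5030.2 (median 4565) in HT vehicle libraries, without overlap, and rose by 0.27 ± 0.04. Ctnnb1 spanned 14274 to 18185 (median 15983) in HT lithium libraries, against 17184 to 20687 (median 19115) in HT vehicle libraries, and fell by 0.25 ± 0.05. Of the 24 ER chaperone genes 12 were called higher and 1 lower in HT (54.2%, against 9.77% of all tested genes). In the glucocorticoid-responsive list HT had 2 higher and 1 lower (13.6%, against the same 9.77%). Fkbp5 spanned 936 to 1502 (median 981) in HT lithium libraries, against 552 to 1318 (median 1016) in HT vehicle libraries (0.11 ± 0.14, adjusted p = 0.709). The difference between genotypes was not called for Fkbp5 (0.67 ± 0.19, adjusted p = 0.292), Hif3a (0.78 ± 0.24, adjusted p = 0.339) or Pkp2 (0.76 ± 0.21, adjusted p = 0.282).

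The difference of the lithium effect, WT minus HT, was called for 3 genes (0.0166%), Nhsl2 as higher in WT (1 gene, 0.00555%) and Nkd1 and Vwa1 as lower (2 genes, 0.0111%). Nkd1 had -0.42 ± 0.08 in WT and 0.19 ± 0.08 in HT, a difference of -0.61 ± 0.11 (adjusted p = 0.0211). In HT it spanned 592 to 749 (median 631) under lithium, against 518 to 674 (median 554) under vehicle. Nhsl2 had 0.44 ± 0.05 in WT and 0.06 ± 0.05 in HT, a difference of 0.38 ± 0.07 (adjusted p = 0.0248). Vwa1, an extracellular matrix protein gene, had -0.21 ± 0.08 in WT and 0.43 ± 0.09 in HT, a difference of -0.64 ± 0.12 (adjusted p = 0.0248). The Nhsl2 and Vwa1 differences lost their calls after the GC and length correction, and Nhsl2 also with the compared groups only. Leaving out 1 of 36 libraries at a time ended the call in 5 cases for Nkd1, 12 for Nhsl2 and 10 for Vwa1, and the count of called genes ranged from 0 to 5. It was 0 without replicate 2 of the WT lithium females, replicate 4 of the WT lithium males, replicate 4 of the WT vehicle males, replicate 4 of the HT lithium males or replicate 3 of the HT vehicle males. A single gene was left (count 1) when HT lithium female 2, HT vehicle female 5, WT lithium male 5, or WT vehicle female 3 or 5 was dropped, and the count was 5 when HT vehicle male 1 was dropped.

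Set against fluoxetine, the other drug given through the milk, lithium in WT differed in 42 genes (0.233%), 30 (0.166%) higher and 12 (0.0666%) lower under lithium. This comparison shares its lithium libraries with the comparison against vehicle, so the values are given side by side. The count was 1 with the compared groups only, 74 after the GC and length correction and 564 with the olfactory level as a covariate. Without 1 library it ranged from 8 to 87. Leaving out replicate 2, 3 or 4 of the WT lithium females gave 8, 26 or 12 calls, and leaving out replicate 4 or 5 of the WT lithium males gave 16 each. Leaving out replicate 1, 3, 4 or 5 of the WT fluoxetine females gave 23, 64, 27 or 87 calls, and replicate 2, 4 or 5 of the WT fluoxetine males 27, 25 or 26. Zbtb16 spanned 1018 to 1694 (median 1476) under lithium, against 759.7 to 1260.2 (median 935) under fluoxetine, and was higher by 0.57 ± 0.09 (adjusted p = 3.03e-04, and at most 0.0207 over 11 alternatives). Sesn3 spanned 5893 to 7402 (median 6383) under lithium, against 5003 to 5922 (median 5564) under fluoxetine, and was higher by 0.25 ± 0.04 (adjusted p = 3.03e-04). The phagocytic receptor gene Mertk spanned 1238 to 1753 (median 1536) under lithium, against 642 to 1440.1 (median 1234) under fluoxetine, and was higher by 0.43 ± 0.08 (adjusted p = 0.00795), while against vehicle it was higher by 0.39 ± 0.08.

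The ETS factor gene Etv6 was higher than under fluoxetine by 0.30 ± 0.05 and higher than under vehicle by 0.29 ± 0.05, and for Ssh2, a phosphatase that activates the actin-severing cofilin, these values were 0.23 ± 0.04 and 0.26 ± 0.04. For Castor2 they were 0.21 ± 0.04 and 0.38 ± 0.04, for Nhsl2 0.29 ± 0.05 and 0.44 ± 0.05, and for Map3k6 0.67 ± 0.15 and 1.0 ± 0.15. On the lower side Ctnnb1 had -0.20 ± 0.04 against fluoxetine (adjusted p = 0.0281) and -0.27 ± 0.04 against vehicle, and Frat2 -0.42 ± 0.09 (adjusted p = 0.0281) and -0.45 ± 0.09. The calls of Sesn3, Mertk, Etv6, Ssh2, Castor2, Nhsl2, Map3k6, Ctnnb1 and Frat2 against fluoxetine ended with the compared groups only. They also ended without replicate 2 of the lithium females for Castor2, without any 1 of 8 libraries for Map3k6, of 6 for Ctnnb1 and of 5 for Frat2.

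Other genes that rose against vehicle had smaller differences from fluoxetine that were not called. Hspa5 had 0.07 ± 0.08 against fluoxetine (adjusted p = 0.865) and 0.41 ± 0.08 against vehicle, and the 24 ER chaperone genes had a median of 0.06 against fluoxetine. Slc5a3 had 0.11 ± 0.09 against fluoxetine and 0.49 ± 0.09 against vehicle, and Irs2 0.23 ± 0.08 against fluoxetine and 0.52 ± 0.08 against vehicle. Fkbp5 had 0.47 ± 0.13 against fluoxetine (adjusted p = 0.1) and 0.78 ± 0.13 against vehicle. A p above the threshold does not show that the 2 drugs acted alike.

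**Figure D5:**
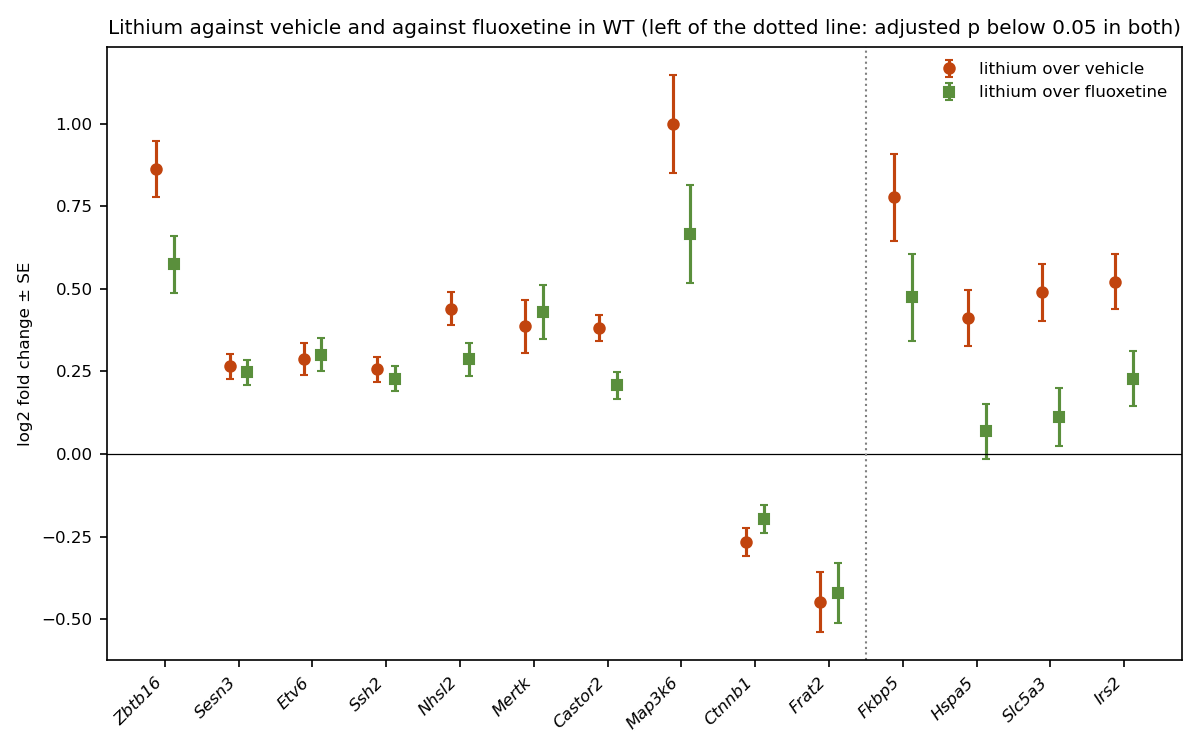
Log2 fold change ± SE of lithium over vehicle (orange circles) and lithium over fluoxetine (green squares) in WT for 14 genes, both from the same lithium libraries. The 10 genes left of the dotted line passed an adjusted p below 0.05 in both comparisons, and the 4 genes on the right passed against vehicle only. Hspa5 is at 0.41 against vehicle and at 0.07 against fluoxetine.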

How the data were processed

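The deposited table holds normalised counts per gene, used here as a signal. Per the submitters' processing notes, Salmon 0.11.2, R 3.6.0, DESeq2 1.19.11 and the genome build GRCm38 were used by the authors, with no role or order given. All deposited values (100%) were whole reads within 1e-06 once divided by each library's step, and the recovered reads gave the depth. In all, 3 columns of the table matched no labelled sample and were not used.

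Values were taken as log2(normalised count + 1), which understates fold changes at low levels. A gene entered the test with at least 10 normalised counts in at least 3 libraries (18026 genes). All 12 groups (56 libraries, 44 residual degrees of freedom) were fitted in 1 limma-trend model (limma 3.58.1, R 4.3.3), with the sexes weighted equally and Benjamini-Hochberg adjusted p below 0.05 as the call. On simulated data, for lithium against vehicle in WT over 18026 genes, 100 genes were changed by 0.5 and 100 by 1 (log2). Of these 90% and 99% were recovered, with 10 false among 199 calls. The median size among the genes called in the real data was 0.23, below both simulated sizes. Recovery of such smaller changes was not tested, and litters are unknown. The rates therefore describe the simulated data only, not the calls reported here. Alternatives included edgeR 4.0.16 and DESeq2 1.42.0 on the recovered reads, a spline correction for GC content and transcript length in the limma fit, and leaving out each library. Those that leave out libraries in the HT, genotype and fluoxetine comparisons were chosen after seeing the data.

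Genes were named by a rule: Shank3, Gsk3a, Gsk3b and Impa1, the 12 largest rises, the 12 largest falls and the 10 smallest p among called genes with a mean of at least 50 normalised counts, and up to 4 called members of each gene list, with like rules for the other comparisons. The compared groups, the gene lists and the tests were chosen with earlier results of these data known. The families of proteasome, COP9, mitochondrial ribosomal, eIF3, Sm and LSm, and laminin genes were chosen after their values were seen. Beyond the rule, Hspa5, Calr, Creld2, Frat2, Lcn2, Plin4, Akt1, Rheb, Dbp and Kdr were named after their values were seen. Some genes that the rule names are not reported here.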

Additional observations from a re-analysis of the deposited data

Results flagged for a closer look

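In 96 combinations of a named gene or library measure with a group of 4 or 5 libraries, 8 held 1 library far from the others, where chance gives about 1 in 20. Aplnr was at 9.54 normalised counts in 1 WT lithium male, with the next at 53.0. Dnajc3 reached 2290.65 in 1 WT lithium female, with the next at 2007.32. Mertk was at 1238.29 and Pkp2 at 100.72 in single WT lithium females, with the next at 1535.51 and 174.94. Among WT vehicle males, Fkbp5 reached 1297.52 (next 705.09) and Pkp2 154.75 (next 78.44), and Cd180 was as low as 48.53 (next 81.68). The Fkbp5, Pkp2 and Cd180 values came from the same library, replicate 1. The mean log2 level of 5 olfactory bulb transcripts was 5.333 in 1 WT vehicle female, with the next at 8.891.

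The effect of lithium differed between genotypes by limma's test of the difference (WT minus HT) for Nkd1 (-0.6147), Vwa1 (-0.6413) and Nhsl2 (0.3817).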

How the results depend on the processing

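Of 92 named genes called in WT with the sexes averaged, 75 kept the call in all 11 alternatives and without any 1 of the 19 libraries. Fzd1 was not among the 92. Over the values of single named genes, 3375 alternatives gave the same side of the threshold and direction, 147 lost the call, 2 gained it (both Impa1 in WT, 0.12 with array weights and 0.14 without replicate 1 of the lithium females) and 1 turned the direction, Nhsl2 in HT after the GC and length correction (-0.0277). The numbers of called genes moved as follows, and the cause was not tested. With array weights there were 3349 in WT, 2041 in WT females, 1088 in WT males, 29 for the sex difference, 3452 in HT, 33 for the genotype difference and 186 against fluoxetine. With the olfactory level as a covariate these were 3278, 2059, 927, 5, 2844, 8 and 564. With the compared groups only, which leaves fewer libraries to estimate the spread, there were 609 in WT females, 155 in WT males, 1 for the sex difference and 1 against fluoxetine. The GC and length correction gave 400 in WT females, 379 in WT males, 1 for the sex difference, 418 in HT, 1 for the genotype difference and 74 against fluoxetine. DESeq2 gave 37 for the sex difference, 13 for the genotype difference and 122 against fluoxetine. TMM factors gave 1186 higher and 949 lower genes in WT. Without 1 library the counts ranged from 1561 to 2263 in WT, 485 to 1095 in WT females, 143 to 486 in WT males, 0 to 4 for the sex difference, 995 to 1958 in HT, 0 to 5 for the genotype difference and 8 to 87 against fluoxetine.

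Same-numbered lithium and vehicle libraries correlated between -0.327 and 0.222 in their deviations, and 1 of 9 correlated best with its own number. The main fit did not pair samples by number. These correlations cannot show whether same-numbered samples shared a litter or a day. With the replicate block 2089 genes were called in WT. Dams and litters are unknown, low genes are limited by counting, and bulk tissue limits what a level says about a cell type.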
